A study of Mus musculus with 2 samples.

Results

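The 7 genes described here belong to the growth hormone and insulin-like growth factor (IGF) axis and were read in the livers of apolipoprotein E-deficient mice, which all ate a high-fat diet. The genes are Ghr, Igf1, Igfals, Igfbp1, Igfbp2, Igfbp3 and Igfbp4, which are 7 of the 12393 genes with a probe set of a single gene symbol. All probe sets whose platform annotation carries 1 of these symbols were taken, which gave 16 of the 22690 on the array. One diet was enriched in olive oil itself, and the other in the oil's unsaponifiable fraction, the minor part that holds sterols, squalene and other compounds without fatty acid esters; the sample of this diet is titled orujo, and its array is called the orujo array here. Each diet has 1 oligonucleotide array and there is no replicate, so the diets could not be tested and every ratio compares 2 arrays, not groups of animals. Sex, age, fasting state, time of death and any pooling of animals were not stated in these sources. Without apolipoprotein E these mice develop high plasma cholesterol and atherosclerosis, and there is no wild-type array among the samples used here.

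Growth hormone binds its receptor GHR on hepatocytes and signals through the kinase JAK2 and the transcription factor STAT5, which drives Igf1, Igfals and feedback inhibitors of the SOCS family. The liver is the main source of circulating IGF-1, most of which travels in a complex with IGFBP3 and the acid-labile subunit encoded by Igfals. The other binding proteins hold IGF-1 in smaller complexes, and hepatic Igfbp1 is known to be held down by insulin and raised in fasting and stress.

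The promoters of Igfbp1 and Igfals are shown because their letters match textbook control motifs of the axis: the insulin response element known for Igfbp1, through which FOXO factors act, and the STAT5 motif known for Igfals. Both are the 250 bases before a transcription start in RefSeq (build GRCm38.p6), written 5′ to 3′ on the gene's strand in lower case with motif matches in capitals. Igfbp1 lies at chr11:7197537-7197786 on the + strand and the Igfals window at chr17:24877981-24878230 on the + strand.
Igfbp1: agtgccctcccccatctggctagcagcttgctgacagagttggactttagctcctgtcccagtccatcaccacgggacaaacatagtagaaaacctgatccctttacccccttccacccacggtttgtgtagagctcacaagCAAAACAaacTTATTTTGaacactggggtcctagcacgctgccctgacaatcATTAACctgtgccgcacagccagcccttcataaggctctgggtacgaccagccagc
Igfals: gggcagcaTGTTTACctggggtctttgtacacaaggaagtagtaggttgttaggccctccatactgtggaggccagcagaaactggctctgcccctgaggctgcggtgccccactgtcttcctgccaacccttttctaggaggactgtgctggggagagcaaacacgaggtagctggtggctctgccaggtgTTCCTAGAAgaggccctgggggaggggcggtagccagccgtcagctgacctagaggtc
The capitals in Igfbp1 mark CAAAACA from 108 to 102 bases before the start, TTATTTTG from 98 to 91 (both parts of the insulin response element), and ATTAAC from 56 to 51, the reverse complement of the HNF1 half-site GTTAAT. In Igfals they mark TGTTTAC, a FOXO-type motif, from 242 to 236 bases before the start, and TTCCTAGAA, a match to the STAT5 motif TTCNNNGAA, from 58 to 50.

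For the search, 6 motifs were used on both strands: TTCNNNGAA for STAT5, CAAAACA as the first part of the insulin response element and TTATTTTG as its second, TGTTTAC for FOXO, GTTAAT for HNF1, and the TATA box TATAAA. Every one of the 7 genes had at least 1 window of 250 bases, 11 in all, and 5 of the 11 held a match, with 0 overlapping matches. Of 32851 such windows in the RefSeq table, 7.02% held TTCNNNGAA, 5.56% CAAAACA, 1.49% TTATTTTG, 3.17% TGTTTAC, 6.43% GTTAAT and 12.4% TATAAA. The Igfbp1 window was the 1 window of 32851 in which CAAAACA and TTATTTTG followed each other with 3 bases between them; since the motif is known from Igfbp1 itself, this count describes the motif's rarity and is no finding about the gene. Another Igfals window held TTCNNNGAA, Igfbp4 held TATAAA, and 1 of the Ghr windows held TATAAA. These matches describe letters in a reference genome and were not measured on the arrays.

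The values are the deposited probe set intensities, on a linear scale that the authors had set to a 2% trimmed mean of 100.05 on both arrays. A floor of 35.6, the 50th percentile of both arrays together, stands in for detection calls, and a probe set above it on both arrays is called measured. All 16 probe sets were measured, Igfbp3 with the smallest margin, at 1.23 times the floor on the olive oil array. Ratios are log2 of the signal on the orujo array over that on the olive oil array. The only repeated measurement is that of several probe sets for a gene: over 2057 genes with at least 2 measured probe sets, the difference between the brightest pair had an SD of 0.43, which puts the noise of a single probe set at 0.30. That noise holds no variation between animals.

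Igfbp1 was the 1 member with at least 2-fold higher signal on the orujo array, and 0 members were at least 2-fold lower. Among all measured probe sets, 1.33% passed 2-fold upward and 1.08% downward. Igf1 was above the olive oil array in all 3 of its probe sets and Igfbp4 in all 6, by smaller amounts. Ghr, Igfals, Igfbp2 and Igfbp3 differed by less than the noise of a single probe set. The median log2 ratio over the 16 probe sets was 0.23, against -0.01 over 10462 measured probe sets. With 1 probe set for each gene, however, the members' median was 0.16, below the median of 0.24 over 9 housekeeping genes. Those ran from Gusb at -0.34 to Polr2a at 0.47, and both had the opposite sign in their second probe set (0.67 and -0.67).

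**Figure D1:**
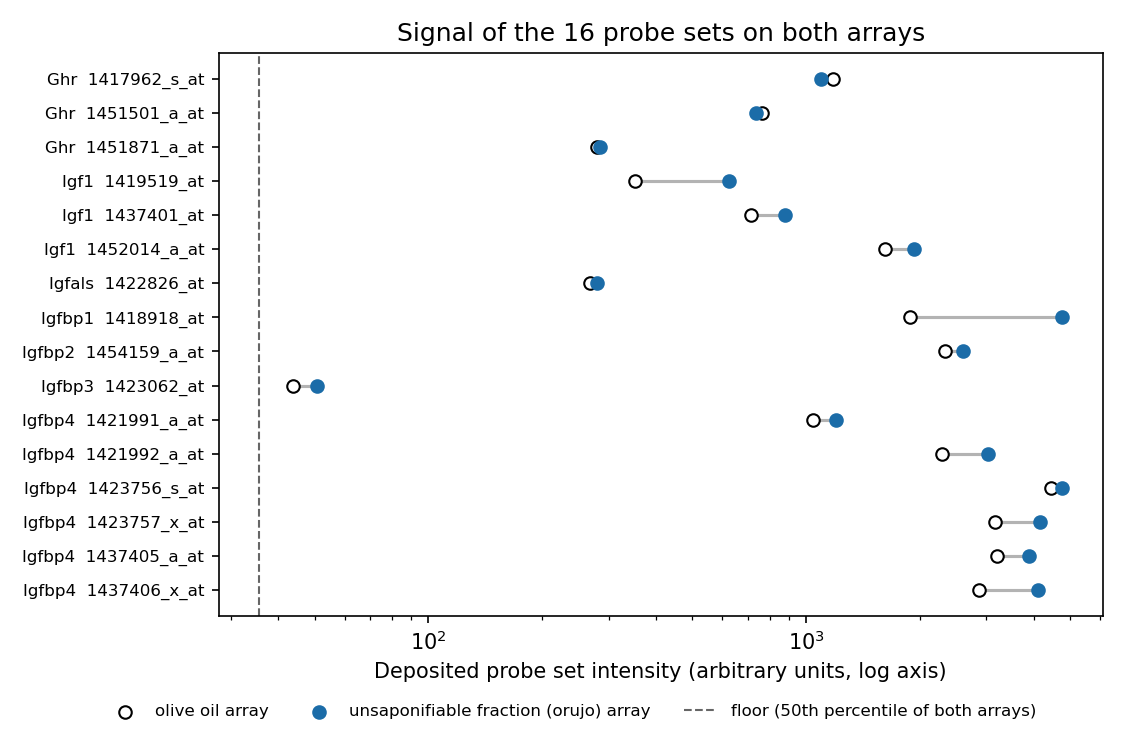
Deposited intensity (log axis, arbitrary units) of each of the 16 probe sets on the olive oil array (open points) and the orujo array (filled points), with the floor of 35.6 dashed. Igfbp1 has the widest gap, from 1879.0 to 4741.4, the Ghr points nearly coincide, and Igfbp3 sits close to the floor.

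Ghr encodes the growth hormone receptor and, by alternative splicing, the circulating growth hormone binding protein. Its probe set 1417962_s_at gave a signal of 1091.9 on the orujo array and 1180.7 on the olive oil array, a log2 ratio of -0.11. Probe set 1451501_a_at gave 738.3 and 766.0, a ratio of -0.05. Probe set 1451871_a_at gave 285.0 and 278.9, a ratio of 0.03. The receptor transcript thus read almost alike on both arrays in all 3 probe sets, whose ratios spanned 0.14. Of 421 genes with 3 measured probe sets, 92.6% had a span at least as wide, and the median span was 0.45. The first of the 3 carries a suffix that marks sequence shared with other transcripts.

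Igf1 encodes IGF-1, the growth factor that liver releases in response to growth hormone. Probe set 1419519_at had a signal of 623.9 on the orujo array and 351.6 on the olive oil array, 1.77-fold higher (log2 ratio 0.83). Probe set 1437401_at had 878.5 and 712.2 (log2 ratio 0.30), and probe set 1452014_a_at had 1924.3 and 1615.9 (0.25). All 3 were higher on the orujo array, but 2 of them by no more than about the noise of a single probe set. The 3 probe sets were designed on 3 different target sequences. They disagreed in size over a span of 0.58, which 37.5% of the 421 genes with 3 measured probe sets reached or passed. Of the 16 probe sets, 1419519_at and the one for Igfbp1 were the only 2 past 1.5-fold, where 5.81% of all measured probe sets were at least that much higher. The mean over the 3 probe sets was 0.46, a 1.38-fold difference.

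Igfals encodes the acid-labile subunit, a leucine-rich liver protein that holds IGF-1 and IGFBP3 in their large circulating complex. Its single probe set gave 278.9 on the orujo array and 267.4 on the olive oil array, a log2 ratio of 0.06. Igfbp3, the partner in that complex, is made in liver mainly outside hepatocytes. Its single probe set gave 50.7 and 43.8, a log2 ratio of 0.21 at a signal little above the floor. Neither carrier gene of the large complex differed beyond the noise of a single probe set. The STAT5 motif printed above for Igfals stands beside a gene whose signal was nearly equal on both arrays.

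Igfbp1 encodes the binding protein whose hepatic output changes fastest with nutrition. Its single probe set, 1418918_at, gave 4741.4 on the orujo array and 1879.0 on the olive oil array, which is 2.52-fold higher (log2 ratio 1.34). Of 10462 measured probe sets, 52 had a ratio at least as high, which puts it at percentile 99.5. A set of 133 probe sets at least as bright as Igfbp1 by mean log2 signal was chosen after the values were seen. Of these, 3 were at least 2-fold higher, Igfbp1 included, and 1 at least 2-fold lower. Among all measured probe sets, 1.33% and 1.08% passed these limits, so the counts do not show such differences to be rarer in bright probe sets. The difference was 4.38 times the noise of a single probe set, but the gene has no second probe set against which to read it.

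Igfbp2, a binding protein that liver also raises in fasting, had a single probe set with 2606.1 on the orujo array and 2333.8 on the olive oil array, a log2 ratio of 0.16. It stayed within the noise and did not share the size of the Igfbp1 difference. Igfbp4 encodes a binding protein known to restrain IGF action and to be cleaved by the protease PAPP-A. Its 6 probe sets, designed on 3 target sequences, gave log2 ratios from 0.10 to 0.52 with a mean of 0.32, or 1.25-fold. The lowest, 1423756_s_at, had 4764.2 against 4435.9, and the highest, 1437406_x_at, had 4105.9 against 2861.4. Between them lay 1421991_a_at with 1198.9 against 1043.6 (log2 ratio 0.20) and 1437405_a_at with 3899.9 against 3198.3 (0.29). Probe set 1423757_x_at had 4167.4 against 3165.8 (0.40), and 1421992_a_at had 3033.6 against 2290.2 (0.41). Every one of the 6 was higher on the orujo array, yet probe sets of 1 target sequence are not independent, and 3 of the 6 carry a suffix of shared sequence. Their span of 0.42 was reached by 78.6% of the 14 genes with 6 measured probe sets. The lowest of them changed sign under quantile normalization (-0.03).

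**Figure D2:**
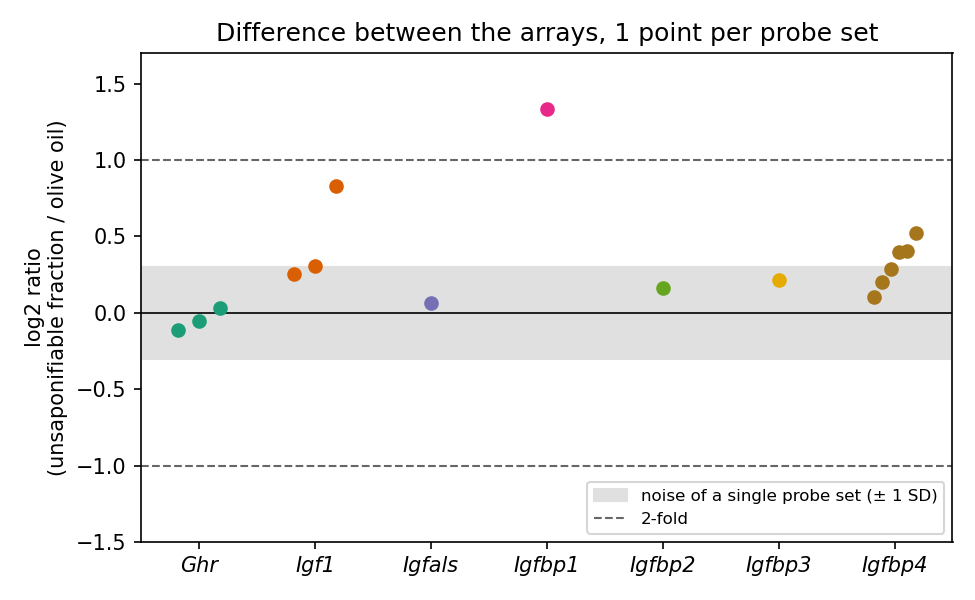
The log2 ratio (unsaponifiable fraction over olive oil) of every probe set, grouped by gene; the grey band is the noise of a single probe set (± 1 SD, 0.30) and dashed lines mark 2-fold. Igfbp1 at 1.34 lies alone beyond 2-fold, 1 Igf1 point is at 0.83, and 11 of the 16 points lie inside the band.

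Of the 16 probe sets, 14 had positive ratios, against 48.3% of all measured probe sets. The 6 of Igfbp4 weigh heavily in that count: with 1 probe set for each gene, 6 of 7 genes were positive, where 47.1% of all measured genes were, and the median was 0.16. Apart from Igfbp1, the probe sets ran from -0.11 to 0.83. Inside the noise lay 11 of the 16, where 62.2% of all measured probe sets lay.

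**Figure D3:**
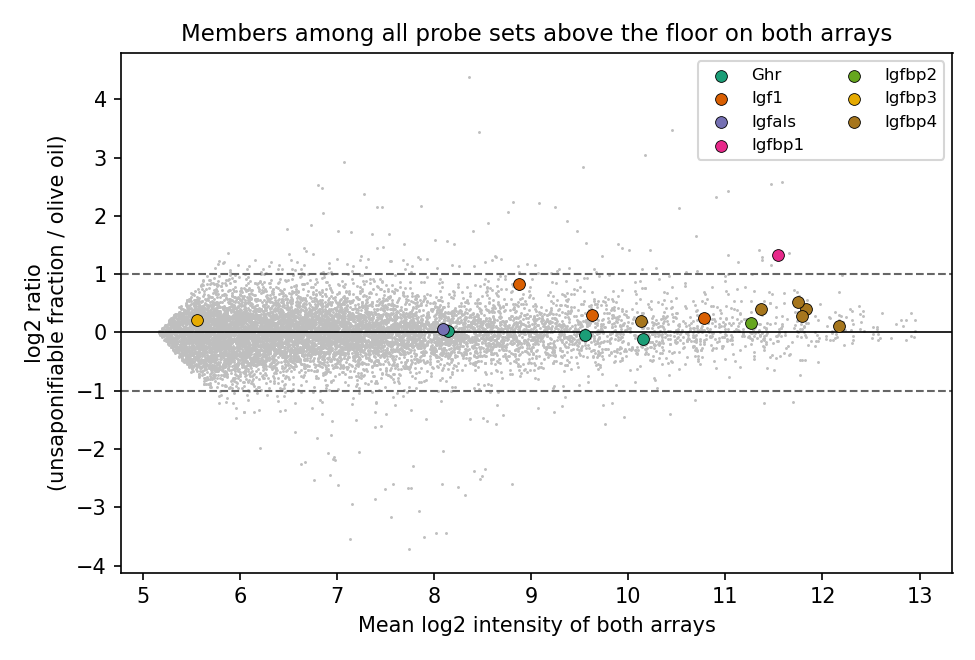
The log2 ratio against the mean log2 intensity of both arrays for all 10462 measured probe sets (grey) and the 16 members (coloured by gene). Igfbp1 stands among the brightest probe sets and above the upper dashed 2-fold line, while the other members lie within the grey cloud.

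The growth hormone signalling list, which also held the related receptor genes Lepr and Ghrhr, had 14 genes, of which 13 had a probe set and 10 were measured by their brightest probe set. Of these, 3 were 2-fold or more above the olive oil array and 0 were as far below it, and the median log2 ratio of the list was 0.32. Across 6640 measured genes, 1.33% were higher by 2-fold or more, 0.979% were lower by that much, and the median was -0.02. This list and the ones below were chosen with earlier results of these data known, so such counts describe the lists and test nothing. Averaging the probe sets of each gene lowered the list's median to 0.16, beside 0.18 for housekeeping genes in the same setting. Without Lepr and Ghrhr, an alternative chosen after seeing the data, 2 of 9 measured genes passed 2-fold upward and the median was 0.27. Socs2, a feedback inhibitor of growth hormone signalling and itself a STAT5 target, had 235.2 against 56.7, a 4.15-fold higher signal (log2 ratio 2.05). Its second probe set gave 165.1 against 48.5 (1.77), so both showed the difference. Jak2, the kinase bound to the receptor, had 125.8 against 59.0 (log2 ratio 1.09), and its second probe set was above the floor only on the orujo array. Lepr, the leptin receptor of the same receptor class, was 5.74-fold higher (267.1 against 46.5).

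No measured transducer and no other measured feedback gene showed a difference of the size of Socs2. Stat5b, the main STAT5 of liver, had log2 ratios of -0.34 and -0.22 in its 2 probe sets. Stat5a was the lowest of the list at -0.72, from signals of 45.4 and 74.9 near the floor. Cish, like Socs2 a STAT5 target, had 141.9 against 117.4 (log2 ratio 0.27). Socs1 was above the floor on neither array. The brightest probe set of Socs3, which cytokines of the IL-6 family induce, was above the floor only on the orujo array. It was at least 1.44-fold higher there. Another Socs3 probe set gave a bound of 1.06-fold, and the last was below the floor on both arrays (12.1 against 22.6). Such lower bounds cannot show whether the Socs3 difference was smaller than that of Socs2. Ghrhr, the receptor of growth hormone-releasing hormone, was at least 1.13-fold higher by the same kind of bound. Socs2 and Cish, known targets of one factor, therefore had ratios of different size on these arrays. A floor at the 75th percentile left 3 measured genes, of which 0 passed 2-fold upward, and Socs2, Jak2 and Lepr were then no longer measured on both arrays. Prlr, also on the list, had no probe set of a single gene symbol and so was not analysed here.

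Receptors, IGF-2 and the remaining binding proteins were mostly near or below the floor. Of 19 listed genes, 17 had a probe set, 6 were measured, 7 were above the floor on neither array and 4 on the olive oil array only. Of the 6, 0 passed 2-fold in either direction, and their median log2 ratio was -0.04. Igf1r, the IGF-1 receptor, which hepatocytes barely express, had 31.2 against 38.1 in its brighter probe set, around the floor. Igf2 was below the floor on both arrays. Igf2r, the mannose 6-phosphate receptor that clears IGF-2, was lowest at -0.50, with -0.21 in its second probe set. Igfbp7, an IGFBP-related protein of vessels, was at 0.11 (766.9 against 708.5). Igfbp5 and Igfbp6 lay at the floor, with 27.0 against 46.7 and 34.0 against 40.8 in their brightest probe sets. Irs2, an insulin receptor substrate, had the highest ratio of this list at 0.72, from 59.3 against 36.1, while Irs1 was at -0.42 and the insulin receptor gene Insr at 0.50.

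Growth hormone also sets the sex-biased gene programme of mouse liver. Of 34 listed genes, 25 had a probe set and 16 were measured. Their median log2 ratio was 0.13, 10 ratios were positive, and 1 gene passed 2-fold in each direction, where 47.1% of all measured genes were positive, 1.33% passed 2-fold upward and 0.979% downward. The housekeeping median of 0.24 was above that of this list, whose median was 0.07 when a gene's probe sets were averaged. Cyp7b1, a male-biased oxysterol hydroxylase, was highest at 1.11, with 0.97 in its second probe set. Hsd3b5, a male-biased steroid dehydrogenase, was lowest at -1.13 (96.8 against 211.5). Cyp17a1, which encodes a hydroxylase of steroids, passed the floor on the orujo array alone and was at least 4.10-fold higher. The other genes of the list lay between these: Nudt7 was at 0.92 (-0.45 in its second probe set), Acot3 at 0.82, the complement gene C6 at 0.79 and Onecut1 at 0.52, while Serpina12 was at -0.51, the urinary protein genes Mup3 and Mup5 at -0.50 and -0.21, and Bcl6 at -0.29. Nearest to equal signal were Cyp2d9 at -0.13, Cyp4a12a at 0.07, Elovl3 at 0.08, Slco1a1 at 0.17 and Hnf4a at 0.18. The female-biased Cyp2b9 was below the floor on both arrays. Egfr, the epidermal growth factor receptor, whose hepatic level depends on growth hormone, was higher in all 5 of its probe sets, with log2 ratios from 0.21 to 1.59 and 0.89 in the brightest (968.2 against 520.9). These genes did not take a common direction. The list holds male-biased and female-biased genes together, so neither that nor its median can speak to growth hormone action. On the log2(intensity + floor) scale, 0 genes of the list were at least 2-fold lower. A floor at the 75th percentile (101.2) left 12 measured genes, of which 0 were at least 2-fold lower. The orujo signal of Hsd3b5 lay below that floor, so Hsd3b5 was no longer among them.

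Genes that insulin and fasting control were taken as the setting of Igfbp1. Of 26 listed, 24 had a probe set and 22 were measured, of which 18 had positive ratios. The median was 0.43, against 0.24 for housekeeping genes (0.29 against 0.21 on the log2(intensity + floor) scale). Past 2-fold were 4 genes upward and 0 downward, against 1.33% and 0.979% of all measured genes, of which 47.1% were positive. The list was chosen with earlier results of these data known, so these counts describe it and test nothing. Ddit4, an mTOR inhibitor induced by stress and glucocorticoids, was highest at 4.44-fold (359.2 against 80.9). Sesn1, a FOXO target, was 2.63-fold, Ppargc1a, the coactivator PGC-1α, 2.53-fold and Gadd45g, a growth arrest gene, 2.49-fold higher. Foxo1, the factor that acts on the insulin response element, had log2 ratios from 0.03 to 0.49 in its 3 measured probe sets. Pck1 and G6pc, gluconeogenic genes that insulin represses like Igfbp1, were at 0.16 (1960.7 against 1758.0) and 0.42 (2460.7 against 1836.1). Srebf1, a lipogenic factor that insulin induces, was lowest at -0.75. Igfbp1 at 1.34 thus exceeded both gluconeogenic genes and was near the brightest probe set of Ppargc1a (144.7 against 57.2). The other measured probe set of Ppargc1a was lower, at 0.84 (75.6 against 42.1), and its remaining probe sets were not above the floor on both arrays. A floor at the 75th percentile left 10 measured genes, of which 0 were at least 2-fold higher, since the olive oil signals of Ddit4, Sesn1, Ppargc1a and Gadd45g lay below it.

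**Figure D4:**
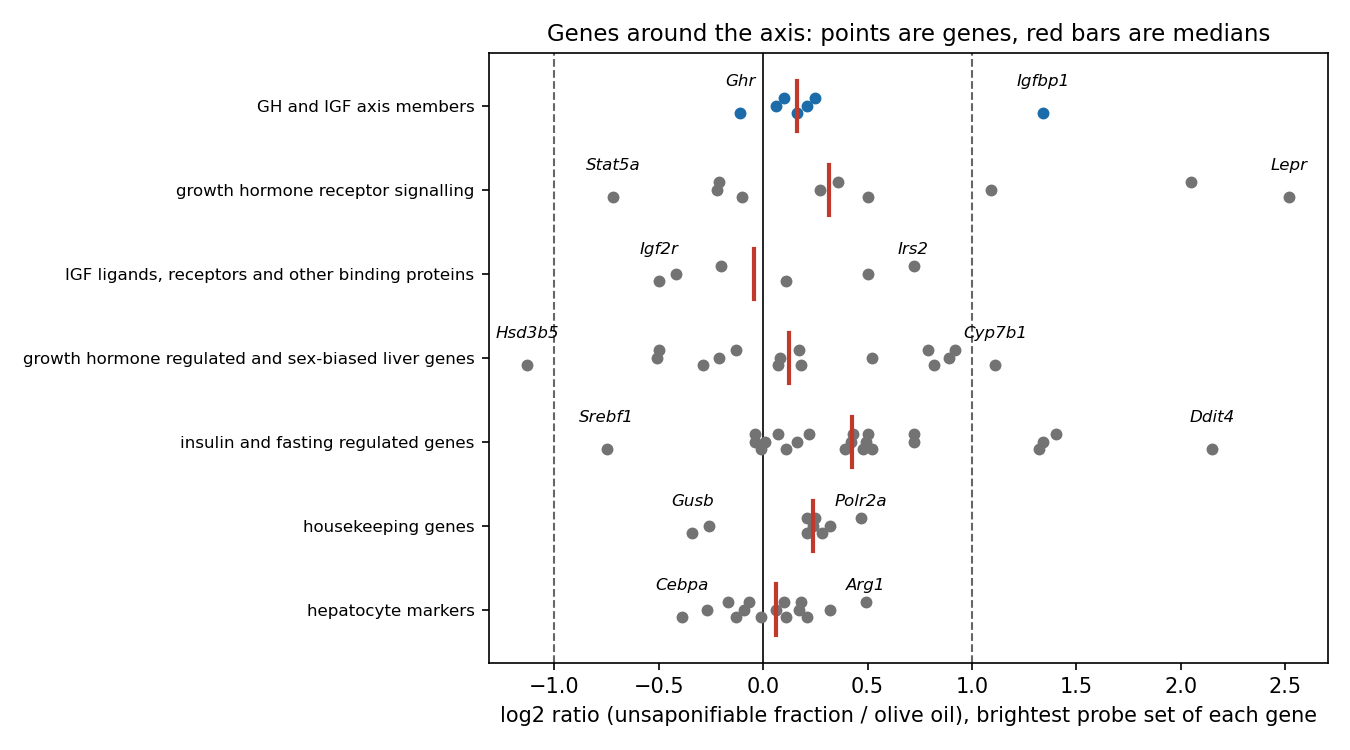
The log2 ratio (unsaponifiable fraction over olive oil) of each measured gene, by its brightest probe set, in the 7 genes of the axis, 5 related lists and the hepatocyte markers; red bars are medians, dashed lines mark 2-fold, and the highest and lowest gene of each row is named. The medians are 0.16 for the axis, 0.32, -0.04, 0.13, 0.43 and 0.24 for the lists from top to bottom, and 0.06 for hepatocyte markers.

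Other transcripts differed between the same arrays. Exocrine pancreas markers were lower on the orujo array in 12 of 12 measured genes, all at least 2-fold, with a summed signal of 1650.7 against 10872.9 (Ctrb1 lowest at -3.72, Cela1 highest at -1.58). Endocrine pancreas markers were measured in 0 of 9 genes. Neutrophil markers summed to 3774.5 against 829.5, mostly through Lcn2 (3304.6 against 400.9), which hepatocytes also make in the acute phase. Of 12 with a probe set, 6 were measured, with a median of -0.07 and Mmp9 lowest at 2.01-fold lower, and 4 more passed the floor on the orujo array alone. Hepatocyte markers were measured in 15 of 15 genes and had a median of 0.06, between Cebpa at -0.39 and Arg1 at 0.49, with summed signals of 110902.4 and 103881.9. Medians for stellate cell markers (0.00 over 11 genes, Acta2 -0.69, Col3a1 0.72), endothelial markers (0.07 over 13, Kdr -0.30, Plvap 0.36) and macrophage markers (0.07 over 15, Ptprc -0.99, Laptm5 0.54) were near 0. No marker was listed at 0 in its brightest probe set. The 18S ribosomal RNA control probe sets had log2 ratios of 2.54 at the 5′ end, 2.48 in the middle and 0.34 at the 3′ end. Those of Gapdh lay from 0.09 to 0.15 and those of actin from -0.27 to 0.01. The 4 of pyruvate carboxylase, a gluconeogenic enzyme, lay from 0.52 to 0.76. The part of these differences in the Igfbp1, Igf1 and Socs2 values was not tested, and in bulk liver fewer cells of a type cannot be told apart from less RNA per cell.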

How the data were processed

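Affymetrix targets were made from about 8 µg of liver total RNA, per the labels. The authors deposited linear intensities, 1 per probe set and array. Software, background step, detection calls and a genome build of the probe sets are not stated, so the probe sets have no coordinates here. Equal trimmed means show that the authors scaled both arrays, so ratios are relative to the average signal.

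Intensities were used as deposited, after the 64 control probe sets were set apart. Values under the floor (50th percentile, 35.6) were raised to it before log2 was taken. A gene above the floor on 1 array has a lower bound against the floor. Lists use the brightest probe set of each gene. Of 22626 probe sets, the platform annotation gave 1 symbol to 20380, several to 691 and none to 1555; all 7 members matched RefSeq by Entrez identifier. Python 3.11.15, pandas 2.3.3 and statsmodels 0.14.6 (loess) were used, and the calculation was tested on simulated data. Precision is limited by having 1 array per diet.

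The members, lists and naming rule were chosen with earlier results of these data known. Named were all members, each list's highest and lowest gene, genes past 2-fold, and a set of pathway genes. Alternatives were 4 scalings (trimmed mean without controls, median centring, quantile, loess with span 0.4), floors at the 25th and 75th percentile or none, log2(intensity + floor), limits of 1.5-fold and 3-fold, and other choices of probe sets.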

Additional observations from a re-analysis of the deposited data

How the results depend on the processing

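The log2 ratio of Igfbp1 ranged from 1.21 to 1.35 over 8 alternatives and stayed past 2-fold in each. That of Igf1 probe set 1419519_at ranged from 0.77 to 0.84. All member ratios kept their sign under every alternative that measured them, except 1 Igfbp4 probe set (1423756_s_at), at -0.03 under quantile normalization. The members' median ranged from 0.16 to 0.25. The count of member probe sets at least 2-fold higher was 1 under every scaling, floor and choice of probe sets, 2 at a limit of 1.5-fold and 0 at 3-fold. Igfbp3 was not above the floor at the 75th percentile.

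Counts in the related lists moved with the floor. At the 75th percentile, 0 measured growth hormone signalling genes (from 3) and 0 measured insulin and fasting genes (from 4) were at least 2-fold higher. Likewise 0 measured growth hormone regulated genes (from 1) were as far below. The genes lost were no longer above that floor of 101.2 on both arrays, so these counts do not show smaller differences. On the log2(intensity + floor) scale, 0 growth hormone regulated genes were at least 2-fold lower. At the 25th percentile, 2 growth hormone regulated genes were higher. With no floor, 5 signalling genes were higher and 1 lower, 1 gene of the IGF receptor and binding protein list was higher and 1 lower, 4 growth hormone regulated genes were higher and 2 lower, and 1 insulin and fasting gene was lower. Averaging a gene's probe sets lowered the median of the growth hormone signalling list from 0.32 to 0.16 and that of the growth hormone regulated list from 0.13 to 0.07. The median of the IGF receptor and binding protein list ran from -0.20 to -0.02. For the insulin and fasting list it ran from 0.29 on the log2(intensity + floor) scale to 0.44 under median centring. The distance to the floor limits Igfbp3 most, at 1.23 times it. No paired analysis was possible because each diet has a single array and the values come from no test, and no array could be left out.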
